A study of Mus musculus with 14 samples.

Results

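The genes of sterol and lipid synthesis that are known targets of the sterol regulatory element-binding proteins (SREBPs), together with the regulators of these factors, were examined in Y1 cells, a mouse adrenocortical tumour line. The 31 members were taken from a gene list by symbol, among 24465 genes of the RNA count files, and were ordered along the pathway as 7 genes of mevalonate and isoprenoid synthesis, 11 of squalene and sterol synthesis, 6 regulators with a sterol carrier, and 7 of fatty acid synthesis. Each member was also looked up in the table of 40772 acetylated regions, in which 91 regions carried a member's symbol.

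All cells had first been kept without serum for 48 h. They then received either 10% fetal bovine serum with fibroblast growth factor 2 (FGF-2) at 10 ng/ml or the same serum alone, for 5 h, so every comparison is FGF-2 on top of serum and no unstimulated cells were compared. Polyadenylated RNA was sequenced from 3 libraries per condition. Acetylation of histone H3 at lysine 27 (H3K27ac), which is found at promoters and enhancers in use, was profiled by ChIP-seq in 2 libraries per condition, from frozen pellets cross-linked after thawing. The labels do not say whether the libraries of a condition came from separate cultures, and all come from 1 cell line, so p-values measure the spread between these libraries, which may be technical. In such bulk samples fewer cells with a transcript and less of it per cell cannot be told apart.

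Cholesterol is built from acetyl-CoA by way of mevalonate, isoprenoid diphosphates, squalene and lanosterol, and adrenocortical cells use it as the precursor of steroid hormones. SREBPs are made as precursors in the endoplasmic reticulum membrane. When sterols are scarce, Scap escorts them to the Golgi, where they are cut, and the released part enters the nucleus and activates the genes of synthesis, while Insig proteins hold Scap back when sterols are plentiful.

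RNA libraries held 11272041, 12696426 and 6403095 gene counts with FGF-2, and 9101089, 8159993 and 5625004 with serum alone, so library 3 was the shallowest in both conditions. Levels are given as CPM, read counts scaled to a common library size with TMM factors, and are compared between conditions but not between genes, since they are not per length. Of the adrenocortical markers, Nr5a1 had 63.9 to 82.4 CPM with FGF-2 and 68.2 to 85.1 CPM with serum alone, Star had 1715 to 3162 CPM with FGF-2 and 97.0 to 281 CPM with serum alone, and the ACTH receptor Mc2r had at most 2 counts in any library. Of the 6 adrenocortical markers tested, Star rose, and the steroidogenic genes Cyp11a1 (log2 fold change -0.76 ± 0.26, edgeR adjusted p 0.0454) and Fdxr (-1.02 ± 0.11, 8.85e-05) fell. The conditions did not overlap for Fdxr but did for Cyp11a1, with 107 CPM in FGF-2 library 3 and 104 CPM in serum library 2. Summed fibroblast and capsule markers, nearly all Col1a1, Col3a1 and Col6a1, had 2214 to 3081 CPM with FGF-2 and 3023 to 3809 CPM with serum alone, while Dcn and Col1a2 were listed at 0 in all 6 libraries. Medulla markers summed to 1.5 to 2.72 CPM with FGF-2 and 5.26 to 7.02 CPM with serum alone, with Th and Dbh at 0. Endothelial and blood markers summed to 3.62 to 4.39 CPM with FGF-2 and 4.78 to 8.19 CPM with serum alone, with Tek at 0, and adipocyte markers to 1.85 to 5.07 CPM with FGF-2 and 2.66 to 3.49 CPM with serum alone, with Adipoq and Lep at 0. Marker counts at or near 0 are not taken as absence of the transcript, since some genes that most cells use also had counts of 0 (below). The part of these other markers in the results was not tested.

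With FGF-2, Hmgcs1, Idi1, Msmo1 and Hsd17b7 rose, and Mvk, Elovl6, Mvd, Acat2, Acss2, Scd2, Fdft1 and Dhcr7 fell, so the enzymes of this pathway did not move in 1 direction. Of the 31 members, 28 had enough counts for the test (edgeR's quasi-likelihood test over 10374 genes). At a Benjamini-Hochberg adjusted p under 0.05, 4 members rose (14.3% of those tested, against 22.1% of all tested genes) and 8 fell (28.6%, against 24.2%), and 16 did not pass. The members' shares were thus close to those over all genes. The median log2 fold change was -0.03 over the tested members and -0.02 over all tested genes. The libraries of the 2 conditions did not overlap for 14 of 28 members (50%), against 57.5% of all tested genes. The count of members that rose was 7 without serum library 3 and 9 without library 3 of both conditions (22.8% and 25.1% of all tested genes rose there), the second being an alternative chosen after seeing the data. With library totals in place of TMM factors, 15 members fell (as did 45.1% of all tested genes), on a scale on which the median over all genes was -0.36.

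**Figure D1:**
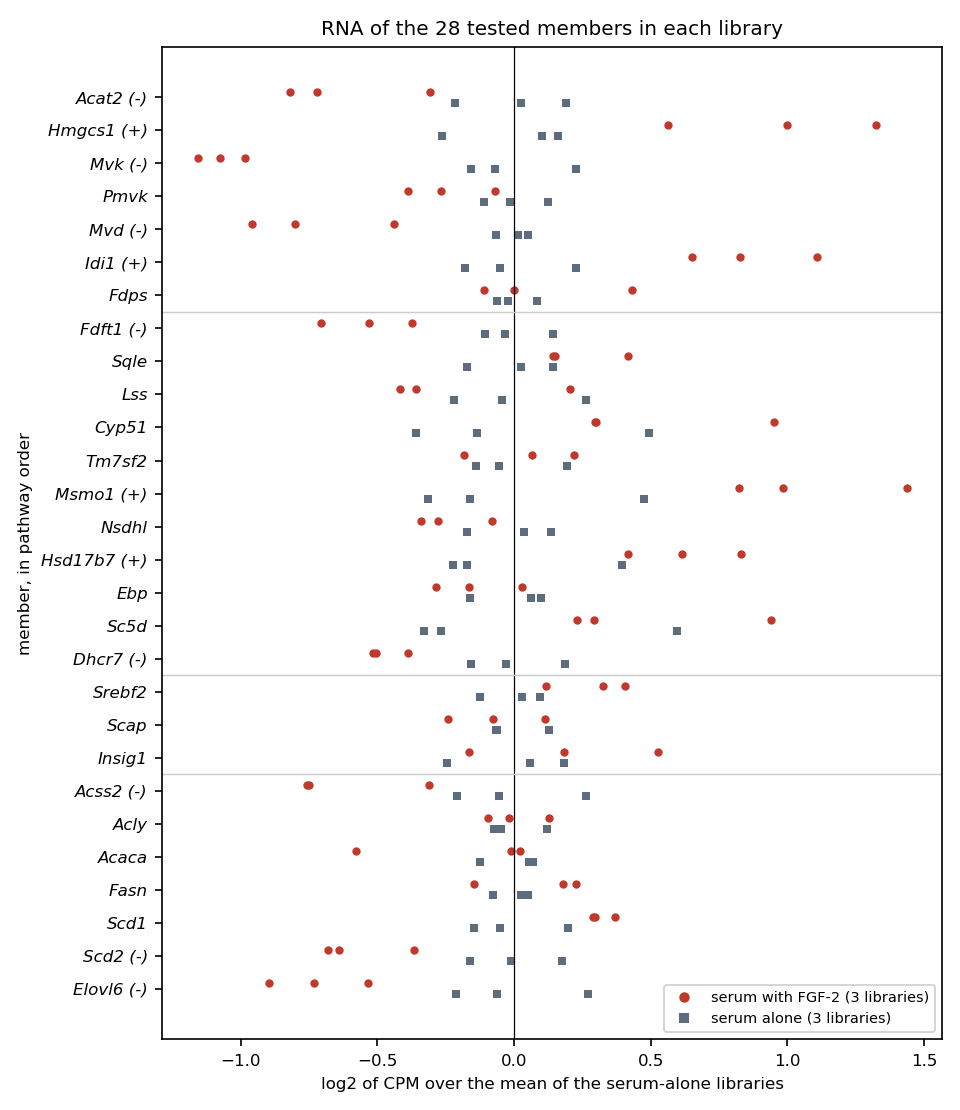
Each row is 1 of the 28 tested members in pathway order, and each point is 1 library, placed at the log2 of its CPM over the mean log2 CPM of the 3 serum-alone libraries; circles are serum with FGF-2 and squares are serum alone, and (+) and (-) mark the 4 members that rose and the 8 that fell. Members placed next to each other in the pathway, such as Hmgcs1 and Mvk, lie on opposite sides of 0.

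The start regions of the members that carry these differences are shown because genes that rose and genes that fell can then be compared letter by letter. RefSeq promoter windows (build GRCm38.p6, 250 bases before to 50 after the start) were matched for 25 of the 31 members, as 33 windows. They were searched on both strands for CCAAT (the core letters bound by NF-Y, a common partner of SREBPs), for TCACNCCAC (a form of the sterol regulatory element) and for CACGTG (an E-box). The 6 windows given here belong to the 4 members that rose and to Mvk and Mvd, which fell and stand between Hmgcs1 and Idi1 in the pathway. Each is written 5' to 3' on the gene's own strand, with CCAAT or its reverse complement ATTGG, TCACCCCAC and CACGTG in capitals, none of which overlap each other here.
Hmgcs1: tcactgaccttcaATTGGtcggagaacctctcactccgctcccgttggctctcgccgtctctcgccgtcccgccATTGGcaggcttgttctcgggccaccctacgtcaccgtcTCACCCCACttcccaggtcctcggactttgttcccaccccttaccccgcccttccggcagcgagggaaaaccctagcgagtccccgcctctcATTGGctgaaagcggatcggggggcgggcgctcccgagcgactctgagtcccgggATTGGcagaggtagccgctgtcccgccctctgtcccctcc
Idi1: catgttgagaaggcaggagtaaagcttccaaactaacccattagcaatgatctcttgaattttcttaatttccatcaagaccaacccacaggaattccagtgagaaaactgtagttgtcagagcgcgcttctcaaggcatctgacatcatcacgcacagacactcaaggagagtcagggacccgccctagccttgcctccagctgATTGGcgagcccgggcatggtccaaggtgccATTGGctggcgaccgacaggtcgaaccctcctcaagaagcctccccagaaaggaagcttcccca
Msmo1: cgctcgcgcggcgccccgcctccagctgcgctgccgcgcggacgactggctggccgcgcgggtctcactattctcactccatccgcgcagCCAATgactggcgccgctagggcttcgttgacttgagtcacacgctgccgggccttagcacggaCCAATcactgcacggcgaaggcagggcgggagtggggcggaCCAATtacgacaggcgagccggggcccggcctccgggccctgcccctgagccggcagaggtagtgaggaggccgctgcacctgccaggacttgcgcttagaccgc
Hsd17b7: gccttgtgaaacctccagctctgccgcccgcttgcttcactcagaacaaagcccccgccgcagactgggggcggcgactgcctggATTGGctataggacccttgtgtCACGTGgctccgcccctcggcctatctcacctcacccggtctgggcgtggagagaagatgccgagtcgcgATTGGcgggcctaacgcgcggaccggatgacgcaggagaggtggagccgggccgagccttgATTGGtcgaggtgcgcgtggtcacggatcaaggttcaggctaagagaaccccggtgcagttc
Mvk: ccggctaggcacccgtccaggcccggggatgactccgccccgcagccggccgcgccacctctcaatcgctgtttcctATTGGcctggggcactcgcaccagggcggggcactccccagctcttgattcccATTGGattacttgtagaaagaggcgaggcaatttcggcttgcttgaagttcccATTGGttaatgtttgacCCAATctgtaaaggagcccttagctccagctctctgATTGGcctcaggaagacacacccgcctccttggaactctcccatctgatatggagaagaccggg
Mvd: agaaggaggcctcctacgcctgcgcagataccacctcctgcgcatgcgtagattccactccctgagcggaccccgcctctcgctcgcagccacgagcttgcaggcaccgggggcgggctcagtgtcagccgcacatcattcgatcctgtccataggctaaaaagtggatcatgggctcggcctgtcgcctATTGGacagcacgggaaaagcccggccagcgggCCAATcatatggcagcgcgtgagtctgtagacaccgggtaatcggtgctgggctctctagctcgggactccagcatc

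These windows lie at chr13:119690101-119690400 on the plus strand for Hmgcs1, chr13:8885356-8885655 on the plus strand for Idi1, chr8:64733529-64733828 on the minus strand for Msmo1, chr1:169969156-169969455 on the minus strand for Hsd17b7, chr5:114444019-114444318 on the plus strand for Mvk, and chr8:122443373-122443672 on the minus strand for Mvd. All 6 hold at least 1 CCAAT, whether the gene rose or fell. Mvk, which fell, holds 5, and Hmgcs1, which rose, holds 4. Over all members, 22 of 33 windows (66.7%) held CCAAT, against 37.4% of the 32851 windows of the table. It was in a window of 4 of the 4 members that rose, and of 4 of the 6 that fell and had a window. For Dhcr7, which fell, it was only in the window at chr7:143829964-143830263, inside the gene, and not in those at its start. For Pmvk and Insig2 it was only in windows outside acetylated regions. Members with several windows had more chances of a match, so counts of members are not set against the share of all windows. Among the other members with a window, it was in 11 of 13 that did not pass the RNA test and in 2 of 2 that were not tested. The sterol element letters were found in 1 of 33 windows, that of Hmgcs1 at position -137 from the start, against 1.24% of all windows. The E-box was in 6 of 33 windows (18.2%), among them Hsd17b7 at -143, against 7.15% of all windows. A match is a description of the letters and not of a bound site, and windows of 1 gene overlap for some members.

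In mevalonate and isoprenoid synthesis, Hmgcs1 and Idi1 rose while Acat2, Mvk and Mvd fell, and Pmvk and Fdps did not pass the test. Hmgcs1, the synthase that makes HMG-CoA (GRCm38 chromosome 13, bases 119690351 to 119708260), had 209.7, 155 and 263 CPM with FGF-2, and 113, 117 and 87.5 CPM with serum alone. Every FGF-2 library was above every serum-alone library, and library 3 was the highest with FGF-2 and the lowest with serum alone. The log2 fold change was 0.98 ± 0.19 (SE, 3 libraries each), with an adjusted p of 0.00349 by edgeR.

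Mvk, the kinase that phosphorylates mevalonate (chromosome 5, bases 114444264 to 114460591), had 19.7, 18.6 and 21.0 CPM with FGF-2, and 48.6, 37.2 and 39.5 CPM with serum alone. The FGF-2 libraries lay close together and far below all serum-alone libraries. Its log2 fold change was -1.09 ± 0.13, with an edgeR adjusted p of 1.86e-04, the smallest p among the members. Mvd, which decarboxylates the product of the mevalonate kinases to isopentenyl diphosphate (chromosome 8, bases 122433596 to 122443422), had 19.5, 15.2 and 13.6 CPM with FGF-2, and 27.3, 26.7 and 25.2 CPM with serum alone. The groups did not overlap, and the serum-alone libraries were the tighter of the pair. Mvd changed by -0.71 ± 0.15 on the log2 scale (edgeR adjusted p 0.0040).

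Idi1, the isomerase that makes the second isoprenoid building block (chromosome 13, bases 8885606 to 8892396), had 25.6, 22.7 and 31.1 CPM with FGF-2, and 14.0, 12.8 and 16.9 CPM with serum alone. All FGF-2 libraries were higher, and library 3 was the highest of both conditions. Its log2 fold change was 0.86 ± 0.16 (edgeR adjusted p 0.00209). Acat2, the cytosolic thiolase at the entry to the pathway, averaged 26.3 ± 5.16 CPM with FGF-2 and 40.1 ± 5.59 CPM with serum alone (SD, n = 3 each), a log2 fold change of -0.63 ± 0.16 with an edgeR adjusted p of 0.00904. Pmvk, the kinase between Mvk and Mvd, differed by -0.24 ± 0.13, and Fdps, which joins the isoprenoid units into farnesyl diphosphate, by 0.12 ± 0.14, and neither passed (edgeR adjusted p 0.15 and 0.51).

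**Figure D2:**
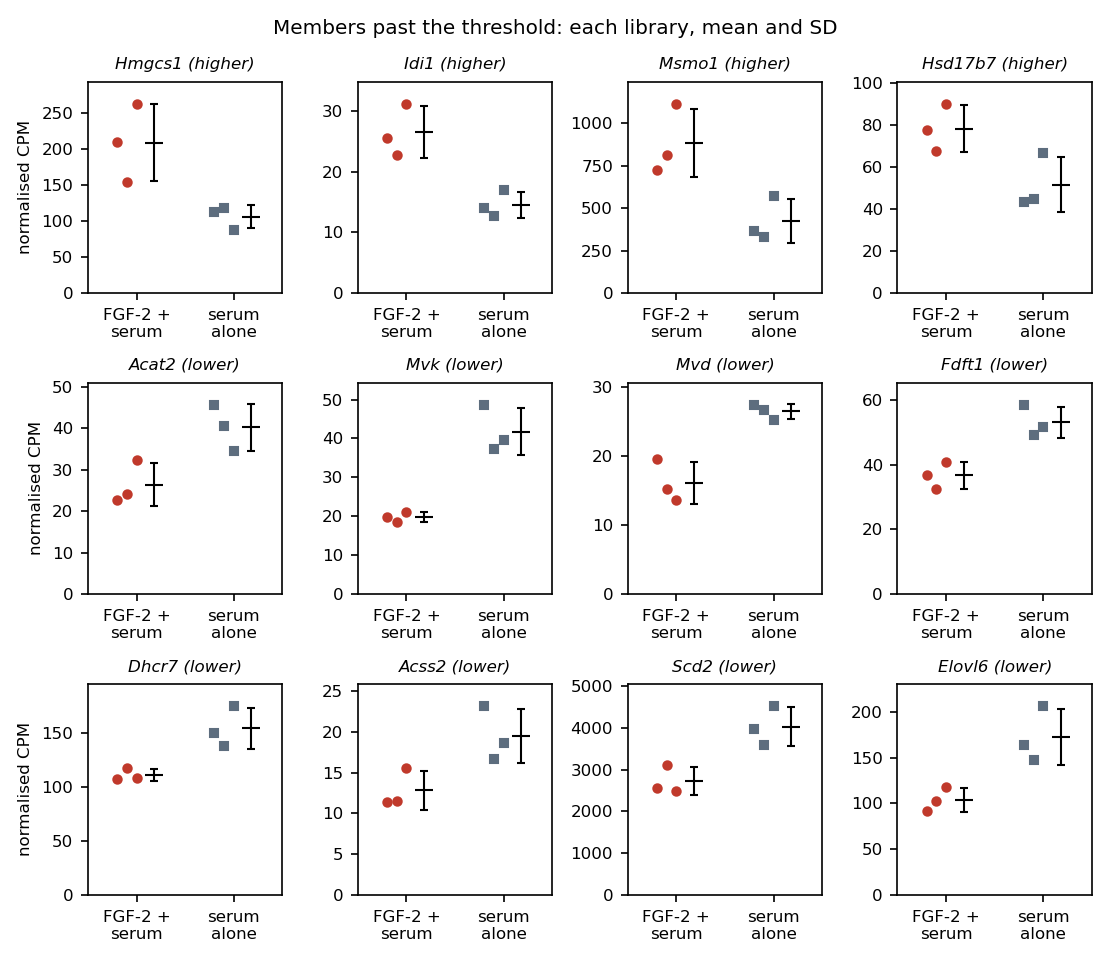
CPM of the 4 members that rose and the 8 that fell, with serum with FGF-2 on the left (circles) and serum alone on the right (squares) of each panel; each point is 1 library, and the bar beside it is the mean with its SD (n = 3). All axes start at 0, and in each panel the libraries of the conditions do not overlap, with the smallest gap for Hsd17b7 (67.5 CPM for the lowest FGF-2 library and 66.6 CPM for the highest serum-alone library).

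In squalene and sterol synthesis, Msmo1 and Hsd17b7 rose, Fdft1 and Dhcr7 fell, and the 7 other members did not pass. Msmo1, the monooxygenase that oxidises methyl groups of the sterol ring (chromosome 8, bases 64718123 to 64733578), had 728, 814 and 1112 CPM with FGF-2, and 368, 331 and 572 CPM with serum alone. The groups did not overlap, although library 3 stood well above libraries 1 and 2 in both conditions. Its log2 fold change of 1.06 ± 0.24 was the highest of the members (edgeR adjusted p 0.00624).

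Hsd17b7, the ketoreductase of the same demethylation steps (chromosome 1, bases 169949535 to 169969242), had 77.5, 67.5 and 90.0 CPM with FGF-2, and 43.4, 44.9 and 66.6 CPM with serum alone. Serum library 3 came within 1 CPM of the lowest FGF-2 library. The log2 fold change was 0.61 ± 0.18 (edgeR adjusted p 0.0199). That call was lost when FGF-2 library 3, or either of serum libraries 1 and 2, was left out (edgeR adjusted p 0.062, 0.0736 and 0.0775), and with upper-quartile factors (0.0545) or library totals (0.166). Nsdhl, the dehydrogenase that acts between Msmo1 and Hsd17b7, averaged 73.5 ± 7.05 CPM with FGF-2 and 86.4 ± 9.17 CPM with serum alone (SD, n = 3 each), and its log2 fold change of -0.23 ± 0.12 did not pass (edgeR adjusted p 0.134).

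Fdft1, squalene synthase, which commits farnesyl diphosphate to sterols (chromosome 14, bases 63145150 to 63181687), had 36.7, 32.5 and 40.9 CPM with FGF-2, and 58.4, 49.2 and 51.8 CPM with serum alone. All FGF-2 libraries were lower, with a log2 fold change of -0.54 ± 0.12 (edgeR adjusted p 0.00559). The gene's span overlaps that of Ctsb in RefSeq, and whether strand was used in counting is not given in the sources used here. Dhcr7, a reductase of the last steps towards cholesterol (chromosome 7, bases 143823167 to 143848410), had 107, 117 and 108 CPM with FGF-2, and 150.1, 137 and 174 CPM with serum alone. The groups did not overlap, and the log2 fold change was -0.47 ± 0.11 (edgeR adjusted p 0.00775).

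Cyp51, the lanosterol demethylase, and Sc5d, a late sterol desaturase, were higher in each FGF-2 library than in serum-alone libraries 1 and 2, yet did not pass. Cyp51 had 698, 697 and 1097 CPM with FGF-2, and 517, 443 and 800.0 CPM with serum alone, a log2 fold change of 0.50 ± 0.26 (edgeR adjusted p 0.148). Sc5d had 161, 154 and 252 CPM with FGF-2, and 105, 109 and 199 CPM with serum alone, a log2 fold change of 0.46 ± 0.30 (edgeR adjusted p 0.253). In both genes serum library 3 lay above FGF-2 libraries 1 and 2. Without serum library 3 both passed, with log2 fold changes of 0.79 and 0.82 (edgeR adjusted p 0.0154 and 0.0141).

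Library 3 was the highest library of both conditions for 11 of the 28 tested members (39.3%), against 19.5% of all tested genes, and 7 of these 11 were sterol enzymes (Lss, Cyp51, Tm7sf2, Msmo1, Nsdhl, Hsd17b7 and Sc5d). Serum library 3 also stood nearest to the FGF-2 libraries on the first principal component of all genes (81.1% of the variance), and library 3 of both conditions stood apart on the second (8.09%). The part of depth or of this library in the members' values was not tested. The other sterol enzymes differed little: Sqle, squalene epoxidase, by 0.24 ± 0.13, Lss, lanosterol synthase, by -0.18 ± 0.19, Tm7sf2, a sterol reductase, by 0.04 ± 0.13, and Ebp, a sterol isomerase, by -0.14 ± 0.12 on the log2 scale, with edgeR adjusted p-values of 0.144, 0.452, 0.847 and 0.367. Lss and Tm7sf2 overlap other counted genes in RefSeq (4930483K19Rik and Vps51).

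None of the 3 tested regulators passed the edgeR test, and 3 more had too few counts to test. At an unadjusted p under 0.05 there was 1 (Srebf2), which was also the 1 regulator past 0.05 in the authors' deposited table. Srebf2, which encodes the SREBP that chiefly drives sterol genes, had 732, 774 and 632 CPM with FGF-2, and 595, 536 and 624 CPM with serum alone. Its groups did not overlap but nearly met at library 3, and its log2 fold change of 0.29 ± 0.13 had an edgeR adjusted p of 0.0912. In the authors' deposited table, made with DESeq2, the log2 fold change of Srebf2 was 0.31 with an adjusted p of 0.0481. Insig1, which retains Scap in the endoplasmic reticulum and is itself an SREBP target, had 74.7, 58.7 and 94.7 CPM with FGF-2, and 55.5, 68.5 and 74.7 CPM with serum alone. The groups overlapped (log2 fold change 0.19 ± 0.18, edgeR adjusted p 0.397). Scap, the escort protein, had 363, 413 and 323 CPM with FGF-2, and 366, 366 and 418 CPM with serum alone, also with overlap (log2 fold change -0.06 ± 0.13, edgeR adjusted p 0.705).

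Srebf1, which encodes the SREBPs that chiefly drive fatty acid genes, had 9, 19 and 3 counts with FGF-2, and 5, 7 and 5 counts with serum alone. Insig2, the second retention protein, had 0, 2 and 0 counts with FGF-2, and 1, 0 and 0 counts with serum alone. Stard4, a carrier of cholesterol in the cytosol, had 5, 4 and 0 counts with FGF-2, and 0 in all serum-alone libraries, where a count of 0 allows up to 0.287 to 0.498 CPM (3 counts, for counting error only). No fold is given for these genes. All 3 lay beside acetylated start regions with peaks in all 4 H3K27ac libraries, with signals for Srebf1 of 186 and 165 with FGF-2 and 186 and 146 with serum alone in the authors' deposited table.

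Low counts beside an acetylated start were not confined to these 3 genes. Of 6631 genes with a mean promoter signal of at least 100, 1004 (15.1%) had a mean count under 10, and among them are genes that most cells use, picked here after their values were seen. The clathrin heavy chain Cltc had 0 counts in all 6 libraries, Abce1 also had 0 in all, the chaperonin subunit Cct2 had 0 to 7, and the actin-capping Capza1 had 0 to 6. A low listed count of Srebf1, Insig2 or Stard4 can therefore not be read as absence of the transcript.

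In fatty acid synthesis Elovl6, Acss2 and Scd2 fell, and none of the 7 members rose by edgeR (1, Scd1, at an unadjusted p under 0.05, and likewise 1 past the threshold in the authors' deposited table). Elovl6, which elongates the products of fatty acid synthase (chromosome 3, bases 129532386 to 129638495), had 91.7, 103 and 118 CPM with FGF-2, and 164, 147 and 206 CPM with serum alone. The groups were well apart, with a log2 fold change of -0.73 ± 0.15 (edgeR adjusted p 0.00284). Acss2, which makes acetyl-CoA from acetate (chromosome 2, bases 155518043 to 155562743), had 11.4, 11.5 and 15.6 CPM with FGF-2, and 23.1, 16.7 and 18.6 CPM with serum alone. The groups came close at FGF-2 library 3 and serum library 2, and the log2 fold change was -0.63 ± 0.18 (edgeR adjusted p 0.0174). That call was lost when either of FGF-2 libraries 1 and 2, or serum library 1, was left out (edgeR adjusted p 0.0654, 0.0655 and 0.0764), and Acss2 overlaps the antisense gene Acss2os.

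Scd1 and Scd2 encode stearoyl-CoA desaturases, which introduce the double bond of oleate, and lie near each other on chromosome 19. Scd2 (bases 44293676 to 44306864) had 2570.2, 3105 and 2498 CPM with FGF-2, and 3970.3, 3580.1 and 4516 CPM with serum alone. All FGF-2 libraries were lower, with a log2 fold change of -0.56 ± 0.16 (edgeR adjusted p 0.0163), but it missed the threshold when FGF-2 library 1 was left out (0.0672). Scd1 (bases 44394450 to 44407709) had 964, 910.4 and 915 CPM with FGF-2, and 673, 720.3 and 855 CPM with serum alone. All FGF-2 libraries were above all serum-alone libraries, and the log2 fold change of 0.31 ± 0.13 did not pass by edgeR (adjusted p 0.0753), while the authors' deposited table gave 0.33 with an adjusted p of 0.0262. The difference between the responses of the 2 genes was not tested, and since their coding sequences are alike, how reads were split between them is uncertain.

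The remaining enzymes of fatty acid synthesis showed little difference. Acly, which releases acetyl-CoA from citrate, averaged 427 ± 34.0 CPM with FGF-2 and 425 ± 32.0 CPM with serum alone, and Fasn, fatty acid synthase, averaged 1733 ± 232 CPM with FGF-2 and 1623 ± 76.7 CPM with serum alone (SD, n = 3 each). Their edgeR adjusted p-values were 0.978 and 0.616. Acaca, the carboxylase that makes malonyl-CoA, averaged 121 ± 26.2 CPM with FGF-2 and 136 ± 9.90 CPM with serum alone (SD, n = 3 each), with FGF-2 library 3 alone low at 90.7 CPM (edgeR adjusted p 0.412).

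Among 20 other SREBP targets, 14 were tested by edgeR, of which 3 rose (21.4%, against 22.1% of all tested genes) and 6 fell (42.9%, against 24.2%). Acacb, Mid1ip1, Elovl5, Fads2 and Fads1 were among those that fell. Acacb, the mitochondrial acetyl-CoA carboxylase, averaged 18.4 ± 2.5 CPM with FGF-2 and 50.4 ± 8.93 CPM with serum alone (SD, n = 3 each; log2 fold change -1.45 ± 0.16, edgeR adjusted p 9.57e-05), and Mid1ip1, which promotes polymerisation of acetyl-CoA carboxylase, changed by -0.60 ± 0.10 (0.00124). Fads1, Fads2 and Elovl5, which make polyunsaturated fatty acids, changed by -0.48, -0.62 and -0.58 on the log2 scale. The median log2 fold change of these 14 genes was -0.20, against -0.02 over all tested genes.

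Of 15 genes of SREBP processing and sterol sensing, all were tested by edgeR, 3 rose (20%, against 22.1% of all tested genes), among them Rnf139 and Ufd1, and Mbtps1 and Erlin2 fell (13.3%, against 24.2%). Rnf139, a ubiquitin ligase of the endoplasmic reticulum linked to sterol control, had a log2 fold change of 0.76 ± 0.12 (edgeR adjusted p 6.57e-04). Ufd1, which helps to extract ubiquitinated proteins from the endoplasmic reticulum membrane, changed by 0.66 ± 0.11 (0.0011). Mbtps1, the first protease that cuts SREBPs in the Golgi, changed by -0.50 ± 0.15 (0.0188), and Mbtps2, the second, by -0.23 ± 0.10, which did not pass (0.0914). The median over the 15 genes was 0.09, against -0.02 over all tested genes.

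H3K27ac at the start sites of the members did not pass the authors' threshold in any case, whether the transcript rose or fell. The nearest region lay at the start for 21 of the 31 members and within 563 bases for the rest, and overlapped a peak in all 4 libraries for all 31. These peaks come from the same 4 libraries as the region signals, and an overlap of 1 base was enough. Such overlap is therefore a description only, and its share over all regions was not computed. The highest peak in these regions stood 5.44 to 46.6 times over background in the FGF-2 libraries and 5.61 to 50.2 times in the serum-alone libraries, as the authors' peak lists give it. At a false discovery rate under 0.05 in the authors' deposited table, 0 of the 31 nearest regions were called, against 2.76% higher and 0.769% lower among 14431 promoter regions. Those promoter regions also include ones more than 1 kb from a start, unlike the 31. With shares this small, a count of 0 among 31 is close to that background. The count at an unadjusted p under 0.05 was also 0 by the authors' deposited table, by limma and by edgeR. Of the 14431 promoter regions, 1438, 1791 and 1728 were under it by these tests in turn. The log2 folds of the nearest regions ran from -0.57 for Fdft1 to 0.52 for Scap, with a median of 0.05 and a smallest false discovery rate of 0.29 in the authors' deposited table. The libraries of the conditions did not overlap in 9 of 31 regions. Over all regions the share was 51.5%, but most of those lie outside promoters, and the share among promoter regions alone was not computed.

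At the start regions of the 4 members that rose, the authors' deposited table gave log2 folds of -0.13 for Hmgcs1, -0.16 for Idi1, 0.28 for Msmo1 and 0.02 for Hsd17b7. The signals at Hmgcs1 were 107 and 99 with FGF-2, and 125 and 100.3 with serum alone in the authors' deposited table, and those at Msmo1 were 179.7 and 186 with FGF-2, and 153 and 149 with serum alone. The groups overlapped at Hmgcs1 and did not at Msmo1. For the 8 members that fell, the folds ran from -0.57 to 0.34, with 5 negative and 3 positive. At Mvk the signals were 24.7 and 19 with FGF-2, and 30.4 and 24.2 with serum alone in the authors' deposited table, overlapping, and at Scd2 694 and 806 with FGF-2, and 671 and 515 with serum alone, where the FGF-2 libraries were the higher although the transcript fell. The windows printed for Hmgcs1, Mvk and Mvd lay largely between acetylated regions, with 18, 84 and 78 of their 300 bases inside any, while those of Idi1 and Hsd17b7 were wholly inside and that of Msmo1 had 108 bases inside. The 84 bases of the Mvk window lie in a region that the authors' deposited table assigns to the neighbouring gene Mmab and that is not among the 91, and the region assigned to Mvk starts after the window's end.

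**Figure D3:**
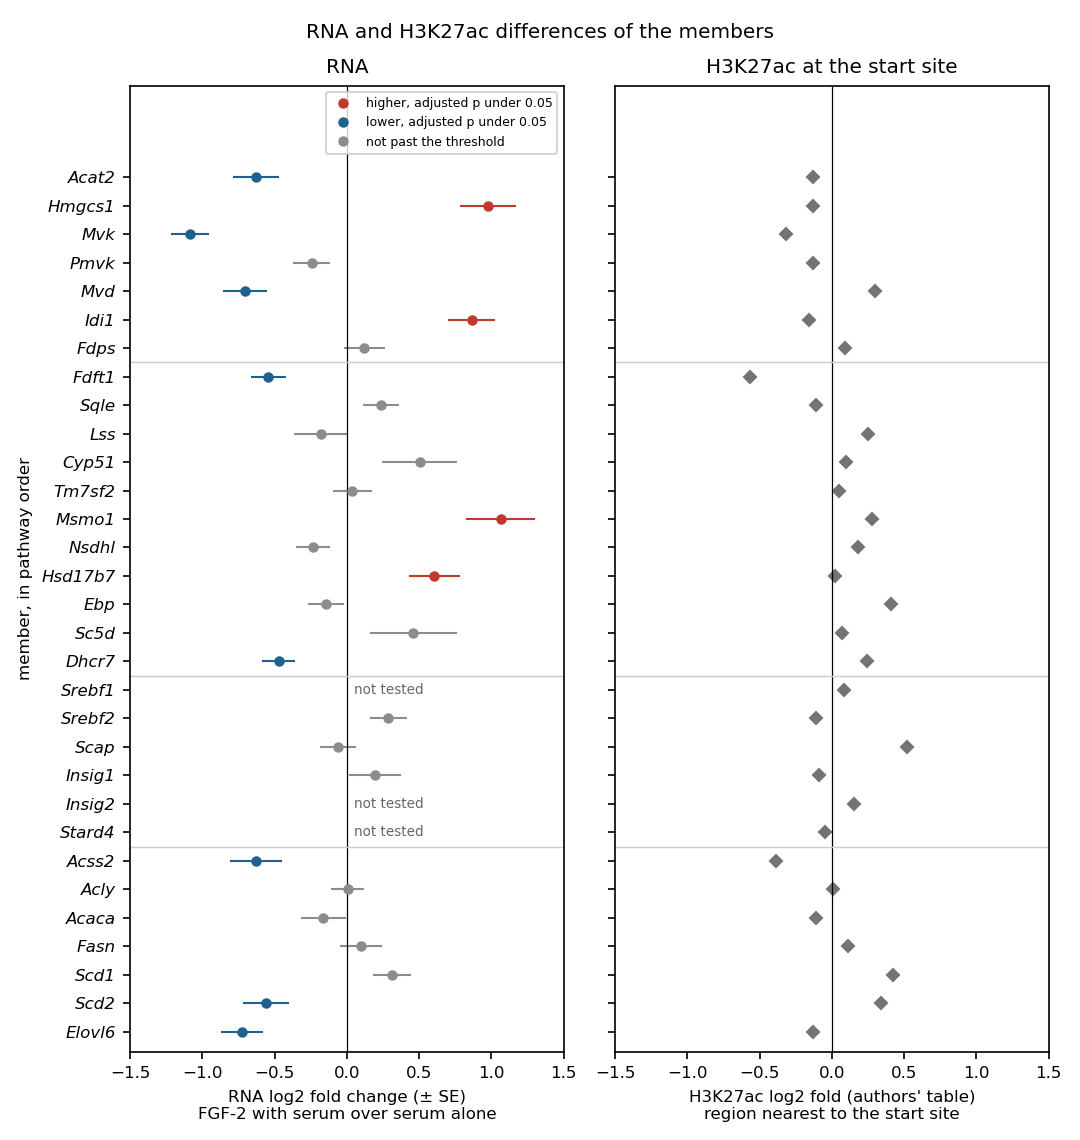
Left, the RNA log2 fold change (FGF-2 condition over serum alone) and its SE for each member in pathway order, coloured by the edgeR call (higher, lower or not past 0.05). Right, the authors' log2 H3K27ac fold at the region nearest to the same member's start site, none of which was called; they lie between -0.57 and 0.52, while the RNA values run from -1.09 to 1.06.

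Over all 91 member regions, 3 were called higher and 0 lower at a false discovery rate under 0.05 in the authors' deposited table, against 8.33% higher and 1.64% lower over all 40772 regions. The 3 lay among the 49 member regions outside promoters (6.12%), against 11.4% higher and 2.12% lower of the 26341 regions outside promoters. All 3 were assigned to Scd1, by nearest start site. In the lower direction 1 region had an unadjusted p under 0.05 in the authors' deposited table, and limma and edgeR each called 1. The region over the end of Scd1 (chr19:44393090-44395126, annotated as 3' UTR) had signals of 184.5 and 121 with FGF-2, and 69.1 and 60.2 with serum alone, a log2 fold of 1.24 with a false discovery rate of 0.00127 in the authors' deposited table. The next, just beyond the gene's end (chr19:44392149-44392993), had 39.9 and 22 with FGF-2, and 7.37 and 7.52 with serum alone, a log2 fold of 2.06 (0.0257) in the authors' deposited table. In both, each FGF-2 library was above each serum-alone library, and FGF-2 library 1 was the higher of the pair.

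The third (chr19:44382507-44383045), 24664 bases from the Scd1 start, had 45.6 and 29 with FGF-2, and 11.97 and 11.7 with serum alone, a log2 fold of 1.66 (0.0402) in the authors' deposited table. Its neighbour at chr19:44383276-44383787 had 31.4 and 17 with FGF-2, and 5.52 and 10.9 with serum alone, and did not pass in the authors' deposited table (log2 fold 1.56, false discovery rate 0.171). limma and edgeR on these signals did call this neighbour (adjusted p 0.0363 and 0.0304). Each thus called 4 of the 91 member regions higher, against 12.6% of all regions by either test. At the Scd1 start the signals were 216 and 231 with FGF-2, and 179 and 156 with serum alone, without overlap (log2 fold 0.42, 0.29 in the authors' deposited table). In a limma test on log2(signal + 1) without FGF-2 library 1, none of the 3 regions passed (log2 folds 1.22, 1.45 and 0.90, adjusted p 0.262, 0.293 and 0.273). The 10 regions assigned to Scd2 held none that was called, and the region with the highest signal, at position -7874 from its start, had 790.2 and 1000 with FGF-2, and 775 and 573 with serum alone (log2 fold 0.41, 0.224 in the authors' deposited table).

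**Figure D4:**
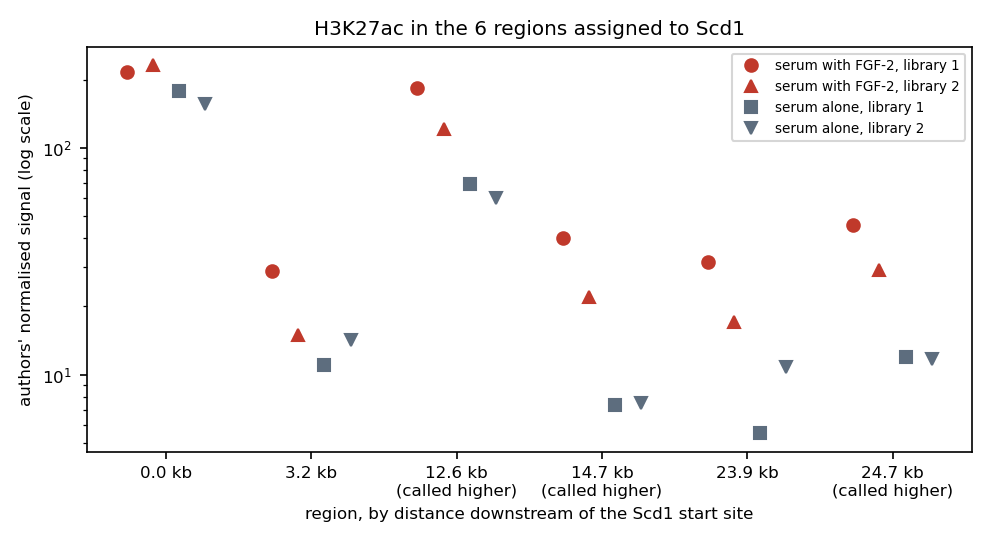
H3K27ac signal per library (log axis, the authors' normalised values) in the 6 regions assigned to Scd1, ordered by distance downstream of its start site, with circles and triangles for serum with FGF-2 and squares and inverted triangles for serum alone. In every region both FGF-2 libraries lie above both serum-alone libraries, and the 3 called regions lie 12.6 to 24.7 kb from the start.

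Just outside the threshold was a region upstream of Insig2 (chr1:121377135-121378835, position -44546 from its start), with signals of 85.6 and 77 with FGF-2, and 134 and 145 with serum alone. Both FGF-2 libraries were lower, and the authors' deposited table gave a log2 fold of -0.77 with a false discovery rate of 0.0501. limma and edgeR on the same signals called it lower (adjusted p 0.0358 and 0.0373), but limma did not with the library number as a block (0.147) or when either library of the FGF-2 condition was left out (0.327 without library 1 and 0.43 without library 2). The Insig2 start region itself had 142 and 177 with FGF-2, and 145 and 141 with serum alone in the authors' deposited table, overlapping (log2 fold 0.15, false discovery rate 0.846).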

How the data were processed

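Y1 cells gave 6 RNA and 4 H3K27ac libraries, grouped by the treatment in their labels. Tools named in the submitters' processing notes are STAR 2.5.2a, HTSeq 0.10.0 and DESeq2 for RNA, MACS2 2.2.6, DiffBind and ChIPseeker for chromatin, and bcl2fastq, SAMtools 1.1 and bedtools 2.15.0, with mm10 as the mouse build. The members and gene lists were chosen with earlier results of these data known.

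The authors deposited raw read counts per gene for each RNA library. No source used here gives the annotation or whether strand was used, which leaves near-identical copies and overlapping genes uncertain (9 members overlap another counted gene in RefSeq). Library sizes left out the 37.0% to 43.2% of reads that fell in no gene or in several. A DESeq2 table of the authors was also deposited, with log2 fold changes, p-values and a test score (Wald statistic).

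Signals per library in the deposited region table were normalised by the authors, who also give log2 folds, p-values and false discovery rates, and its symbols tied regions to members. Whether input reads had been subtracted is not given. Peaks come from MACS2 on the fragments of single libraries, per the file headers, with a fold (ratio) over background and −log10 q for each. These libraries held 11840994 to 14156846 fragments.

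RNA was tested with edgeR 4.0.16 (quasi-likelihood, robust, TMM, filterByExpr, group as the only term) in R 4.3.3 on all genes, at a Benjamini-Hochberg adjusted p of 0.05. Each SE was obtained by dividing the size of the log2 fold change by the root of its F. Region calls are the authors'. limma 3.58.1 on log2(signal + 1) and edgeR on reads recovered from the signals (100% whole within 0.02 reads) served as alternatives. Further alternatives were DESeq2 1.42.0, other scalings, no filter, a replicate block and leaving out libraries. Scripts were tested on simulated data.

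Values per library are given for members past the threshold with the largest changes in each of the 4 pathway groups (at most 4 each), for members with a called region and for the regulators, with up to 3 genes by smallest p from each other list. Some genes that this rule takes are not reported here. Other genes were named after their values were seen. Promoter sequences are from RefSeq (GRCm38.p6).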

Additional observations from a re-analysis of the deposited data

How the results depend on the processing

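All 12 members called by edgeR kept their direction in the 13 alternatives run, and 9 kept their call in all; Hsd17b7, Acss2 and Scd2 lost theirs in 5, 3 and 1. The other counts, of members that rose and fell, are given with the shares of all tested genes that rose and fell. They were 6 and 8 with DESeq2 (20% and 17.9%) and 4 and 8 with RLE factors (23.2% and 23.3%). With upper-quartile factors they were 3 and 10 (15.6% and 32%), and with library totals 3 and 15 (9.98% and 45.1%). With no filter they were 5 and 8 (15.6% each). Leaving out libraries gave 3 to 9 that rose (7 without serum library 3, 9 without library 3 of both conditions) and 6 to 8 that fell. In these fits 15.4% to 25.1% of all tested genes rose and 17.9% to 25.7% fell. The members' median was -0.17 with upper-quartile factors and -0.37 with library totals, on scales where the median of all genes was -0.16 and -0.36. The labels do not say whether libraries of the same number are paired. Correlations of same-numbered deviations were -0.13, 0.05 and 0.39 (the last for library 3). Those of differently numbered libraries ran from -0.35 to 0.43, so these values do not settle the pairing. With the replicate number as a block, 6 members rose and 8 fell, against 22.9% and 25.5% of all tested genes. The additions were Cyp51 (0.51, edgeR adjusted p 0.00989) and Sc5d (0.49, 0.0045), and limma with the block kept the 3 Scd1 regions.

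Signs of log2 fold changes turned only in members that had not passed the threshold. With upper-quartile factors these were Acly -0.14, Fasn -0.046, Fdps -0.020 and Tm7sf2 -0.11. With library totals they were Acly -0.34, Fasn -0.24, Fdps -0.22, Insig1 -0.15, Scd1 -0.023, Sqle -0.097, Srebf2 -0.049 and Tm7sf2 -0.30. Leaving out libraries, Acly ran from -0.082 to 0.062 (-0.055 without FGF-2 library 3), Tm7sf2 from -0.053 to 0.14, Scap from -0.16 to 0.10 (0.024), Acaca from -0.26 to 0.0064 and Fdps from -0.054 to 0.23 (-0.051).

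Of the 91 member regions, 1 was called higher at a false discovery rate of 0.01, against 5.15% of all regions. By limma with a pseudocount of 1 or 10 and by edgeR, 1 was called lower, against 3.73%, 3.94% and 3.62% of all regions. Leaving out libraries with limma gave 0 to 8 called higher (0 without FGF-2 library 1, where 2.92% of all regions were called higher, and 8 without serum library 1, where 16.4% were), 0 to 2 called lower, and 0 to 2 start regions called (2 without serum library 1, Fasn and Scd2). In these fits the lone library is assumed to vary like the other group. The sign turned in at least 1 of these fits for 20 of the 31 start regions. Of the 17 start regions followed singly, the 8 that turned ran, in log2, from -0.29 to 0.034 for Acat2 (0.028 without FGF-2 library 1), -0.28 to 0.034 for Hmgcs1, -0.38 to 0.031 for Idi1, -0.20 to 0.29 for Hsd17b7, -0.085 to 0.26 for Srebf1, -0.017 to 0.30 for Insig2, -0.26 to 0.17 for Stard4 (0.11 without FGF-2 library 2) and -0.37 to 0.14 for Elovl6 (0.029 without FGF-2 library 1). Peaks at start regions were found for 28 members at a −log10 q of at least 10 and for 27 with at least 50% of the region covered. The cause of these changes was not tested. Depth limits genes with few counts, and 2 H3K27ac libraries per condition limit the region tests.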

Other observations

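Of 9 genes of the liver X receptor arm, the oxysterol-sensing counterpart of the SREBPs, 4 had enough counts for edgeR's test, and Rxra, the shared partner receptor, was the 1 that passed (25% of those tested fell, against 24.2% of all tested genes), at 15.5 ± 3.05 CPM with FGF-2 and 28.1 ± 4.72 CPM with serum alone (SD, n = 3 each; log2 fold change -0.85 ± 0.18, edgeR adjusted p 0.00352). Nr1h2 differed by -0.03 ± 0.11, Rxrb by -0.33 ± 0.13 and the cholesterol exporter Abca1 by 0.93 ± 0.66 (edgeR adjusted p 0.862, 0.051 and 0.276). Of 12 genes of cholesterol uptake and storage, 11 were tested, 4 rose (36.4%, against 22.1% of all tested genes) and 5 fell (45.5%, against 24.2%). Soat1, which esterifies cholesterol for storage, averaged 2617 CPM with FGF-2 and 605 CPM with serum alone (log2 fold change 2.11 ± 0.26, edgeR adjusted p 2.46e-04). Nceh1, which hydrolyses cholesterol esters, averaged 43.1 CPM with FGF-2 and 118 CPM with serum alone (-1.45 ± 0.12, edgeR adjusted p 2.55e-05). Lipe, another hydrolase of the list, went the other way, at 17.2 CPM with FGF-2 and 11.9 CPM with serum alone (0.53 ± 0.17, edgeR adjusted p 0.0241). A shift towards storage was not tested.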
